A study of Zea mays with 12 samples.

Results

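Maize embryos of the hybrid Mo17xB73 were compared with embryos of the inbred line Mo17, which is taken as the seed parent of that cross because the seed parent is usually written first. The labels do not spell this out. The comparison used the 3 arrays titled Mo17xB73 and the 3 arrays titled Mo17, 6 of the 12 arrays of the series, and all 17621 probe sets other than the manufacturer's controls. Each probe set combines several short probes for the same transcript into a single signal. The other 6 arrays held the inbred B73 and the opposite cross, B73xMo17, at 3 arrays each. All embryos were taken 19 days after pollination from plants grown in the field, with 3 collection dates, each shared by the replicates of 1 number. The labels do not give the number of embryos in a sample.

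Mo17 and B73 are inbred lines that serve as parents of hybrid maize. An embryo of Mo17 carries Mo17 alleles on both chromosomes of a pair, and an embryo of Mo17xB73 carries a Mo17 allele from the seed parent and a B73 allele from the pollen. The comparison therefore measures what changes when a B73 allele takes the place of a Mo17 allele, and the series title asks whether such changes are additive and act in cis, that is, from the allele itself. A cereal kernel also holds the endosperm, which receives more genome copies from the seed parent than from the pollen parent. The endosperm stores starch and zeins, the prolamin storage proteins of maize, and its basal transfer layer takes up nutrients from the mother plant.

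Levels are log2 signals after quantile normalization, and differences are given as Mo17xB73 minus Mo17 with the standard error (SE) of the limma fit. A probe set is called when its adjusted p is below 0.05. Whether the probes bind transcripts of the Mo17 and B73 alleles equally was not tested, so the differences are in signal. Since no detection calls were used, some differences are also given after every normalized value below 4.78, the 25th percentile of all values, was raised to that floor. Log2 signals correlated at 0.971 to 0.973 among the Mo17xB73 arrays, at 0.97 to 0.973 among the Mo17 arrays and at 0.948 to 0.953 between both groups. No array stood apart. The embryo markers fixed for this tissue were present in every group, with 0 of 9 below the floor in all 4 groups, and 6 of 9 green tissue markers lay below the floor in all 4. Starchy endosperm markers were also bright, with only 1 of 17 below the floor in all 4 groups, as were basal transfer layer markers, with 0 of 11. The summed signal of the embryo markers ran from 36273 to 44291 in Mo17 and from 44425 to 50076 in Mo17xB73. That of the starchy endosperm markers ran from 57443 to 74379 in Mo17 and from 72551 to 81563 in Mo17xB73. These ranges overlap, and those of the embryo markers lay only just apart, at 44291 and 44425. The basal transfer layer markers summed to 12027 to 16373 in Mo17 and to 14724 to 18832 in Mo17xB73. In whole samples of this kind, fewer cells of a type and less RNA per cell cannot be told apart.

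The hybrid differed from its seed parent at 2877 of the 17621 probe sets, 16.3% of those tested. Of these, 1564 (8.88%) were higher in Mo17xB73 and 1313 (7.45%) were lower. The higher calls were wider. Their median difference was 0.88 with quartiles of 0.49 and 1.76, against a median of -0.52 with quartiles of -0.76 and -0.36 for the lower calls. Called changes of at least 2-fold numbered 864 (4.9% of the probe sets), 704 upward (4%) and 160 downward (0.908%). With the floor set, 79 of the higher calls and 0 of the lower calls reached 8-fold, and 568 and 98 reached 2-fold. Among the higher calls, 288 rose from a Mo17 mean below the floor to a Mo17xB73 mean above it, and 29 of the lower calls fell the other way across it. A further 42 higher and 39 lower calls had both means below the floor. The wider spread upward was also there with those calls left aside. The 1234 higher calls whose Mo17 mean lay above the floor had a median of 0.68 and a highest value of 6.27. Lower calls with all groups above the floor (1192) had a median of -0.48 and a lowest value of -1.89. The hybrid keeps a Mo17 allele, and the part of this in the unequal spread was not tested.

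The balance of directions depended on the scaling of the arrays, while the median over all probe sets lay at -0.07. Higher calls made up 54.4% of all calls after quantile normalization. They made up 38.8% with median centring (1417 higher and 2231 lower), 48.8% with the floor (1392 and 1463), and 82.8% with the deposited values on the log2 scale alone (742 and 154). The lower calls also numbered only 840 without Mo17 replicate 2, 809 without Mo17 replicate 3 and 822 without Mo17xB73 replicate 1. The 3 arrays of one group lay wholly above or below the 3 of the other at 33.6% of the probe sets, upward at 2305 (13.1%) and downward at 3624 (20.6%), so groups without overlap were more frequent than calls.

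**Figure D1:**
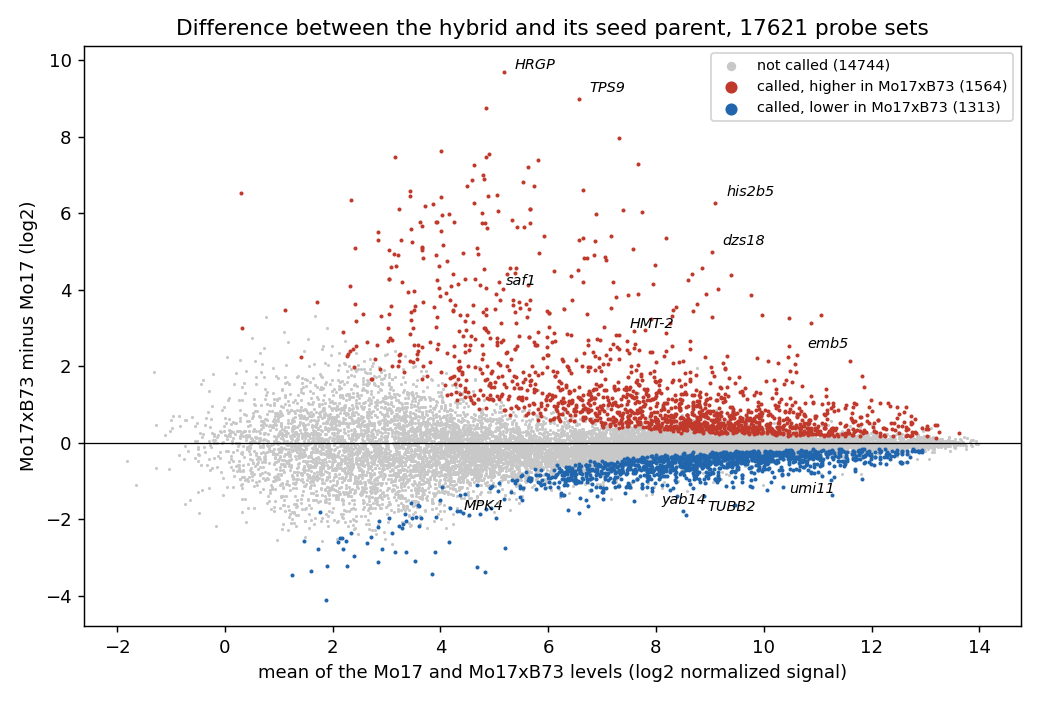
Mo17xB73 minus Mo17 (log2, vertical axis) for 17621 probe sets against the mean of both group levels (log2 normalized signal, horizontal axis). Red points are the 1564 probe sets called higher in Mo17xB73, blue points the 1313 called lower and grey points those not called, and the red points reach 9.68 while the blue ones reach -4.1.

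The steadiest wide rise in signal was that of a probe set of his2b5, which encodes a histone H2B of the nucleosome core. It measured 6.08, 5.61 and 6.21 on the Mo17 arrays and 12.24, 12.13 and 12.33 on the Mo17xB73 arrays. The difference of 6.27 ± 0.12 (adjusted p = 1.1e-12) is 77.3-fold in the signal of this probe set. B73 itself measured 12.62, 12.69 and 12.69, and B73xMo17 12.22, 11.98 and 12.19, so both hybrids lay just under B73 and far above Mo17. Of 12 unnamed probe sets whose identifiers share its cluster number, 1 was called higher (1.11), 3 were called lower and 8 were not called. One of the lower ones, singled out after its values were seen, had the reverse order of the inbreds, with a mean of 12.43 in Mo17 and 1.62 in B73. It averaged 11.90 in Mo17xB73 (-0.53, adjusted p = 0.0023) and 11.62 in B73xMo17. The histone list held 4 other genes, of which cenH3, the centromeric H3, was called lower by 0.31 ± 0.10 (adjusted p = 0.045). That call was lost with collection date as a block and without any single one of 8 arrays, with an adjusted p of up to 0.188.

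The delta zein gene dzs18, which encodes a methionine-rich storage protein of the endosperm, measured 6.61, 6.68 and 6.36 in Mo17 and 11.34, 11.50 and 11.76 in Mo17xB73. It rose by 4.98 ± 0.10 (adjusted p = 1.1e-12), 31.6-fold. In B73 its levels were 13.53, 13.64 and 13.61. The hybrid thus stood between its parents, well apart from each. Of the other 3 probe sets of dzs18, 2 were called and rose by 7.28 and 7.96 from Mo17 means below the floor, and the third differed by 0.61 (adjusted p = 0.18).

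TPS9 and HRGP went from signals at the low end of the array to bright ones. TPS9 measured 3.76, 3.48 and -0.99 in Mo17 and 11.07, 11.15 and 10.95 in Mo17xB73, a difference of 8.97 ± 0.85 (adjusted p = 5.1e-06), or 6.27 with the floor. HRGP, which encodes a hydroxyproline-rich glycoprotein of the cell wall, measured 2.76, -0.88 and -0.89 in Mo17 and 10.04, 10.27 and 9.73 in Mo17xB73. Its difference was 9.68 ± 0.70 (adjusted p = 3.4e-07), or 5.23 with the floor. All 6 Mo17 values of these genes lay below the floor, so the larger figures have no firm size. A second HRGP probe set rose by 6.81.

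Genes of metabolism and membranes followed. HMT-2, named for homocysteine methyltransferase, which makes methionine, measured 5.71, 5.97 and 6.05 in Mo17 and 8.70, 8.77 and 8.70 in Mo17xB73 (2.81 ± 0.10, adjusted p = 3e-10). The small heat shock gene hsp18a measured 5.89, 6.01 and 6.34 against 9.01, 8.19 and 8.38 (2.45 ± 0.18, adjusted p = 4.1e-07). The cellulose synthase gene CesA-4 rose from 6.20, 5.76 and 5.83 to 8.25, 8.07 and 8.34 (2.29 ± 0.13, adjusted p = 3.7e-08). In all 3 the groups were far apart, and the hybrid stayed below the B73 means of 9.60, 9.95 and 8.49. The aquaporin family gene nip3a rose by 2.25 ± 0.12 and phb3, which encodes a prohibitin of the mitochondrial inner membrane, by 2.22 ± 0.17. saf1 rose by 3.74 ± 0.50, or 2.44 with the floor, since its Mo17 values of 4.10, 4.56 and 1.77 lay under it. eif7 rose by 2.67 ± 0.08 on one probe set and differed by 0.09 (adjusted p = 0.49) on its other one, so the gene's rise is uncertain.

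Differences in the other direction were narrower. TUBB2, a beta-tubulin gene, measured 9.90, 9.85 and 10.03 in Mo17 and 8.73, 8.96 and 9.04 in Mo17xB73, and fell by 1.02 ± 0.15 on the log2 scale (adjusted p = 0.00037). yab14, a YABBY transcription factor gene of lateral organ polarity, measured 9.68, 9.89 and 10.01 against 8.97, 8.90 and 8.35 (-1.12 ± 0.17, adjusted p = 0.00048). umi11 measured 11.00, 10.34 and 10.58 against 9.94, 9.37 and 9.56 (-1.02 ± 0.22, adjusted p = 0.0056). For each of these genes the groups did not overlap and the hybrid mean lay between those of both inbreds, with B73 at 7.42 for TUBB2, 7.06 for yab14 and 8.96 for umi11.

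The MADS-box gene m20, a transcription factor gene, measured 7.43, 7.48 and 7.68 in Mo17 and 6.24, 6.44 and 6.50 in Mo17xB73 (-1.14 ± 0.27, adjusted p = 0.01). mir3, a cysteine proteinase gene of insect resistance, measured 8.03, 8.13 and 8.07 against 7.09, 6.97 and 6.68 (-1.16 ± 0.17, adjusted p = 0.00027). A second entry named mir3 (LOC100037824) fell by 1.27 ± 0.23 (adjusted p = 0.0019), and its probe set shares a cluster number with the first, so they may not be independent. TMT fell by 1.22 ± 0.29 (adjusted p = 0.011) and ubc7 by 0.93 ± 0.19 (adjusted p = 0.0042) on the called probe set of 7, the other 6 lying between -0.45 and 0.04.

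The remaining lower genes rested on dim signals or single arrays. The beta-glucosidase gene glu2 (-1.30 ± 0.41, adjusted p = 0.047) lost its call without any one of 9 arrays, with an adjusted p of up to 0.167. The MAP kinase gene MPK4 measured 6.04, 6.24 and 6.46 in Mo17 and 4.17, 5.02 and 5.12 in Mo17xB73 (-1.48 ± 0.42, adjusted p = 0.029, -1.27 with the floor). Its call was lost without Mo17 replicate 2 or 3 or Mo17xB73 replicate 1 (adjusted p up to 0.121). rcph2 (-1.20 ± 0.31, adjusted p = 0.017) was lost without Mo17 replicate 3 or Mo17xB73 replicate 1 or 3 (up to 0.0746). akh2, which encodes aspartate kinase-homoserine dehydrogenase of amino acid synthesis (-0.97 ± 0.25, adjusted p = 0.018), was lost without Mo17 replicate 1 or 3 or Mo17xB73 replicate 1 (up to 0.0784).

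**Figure D2:**
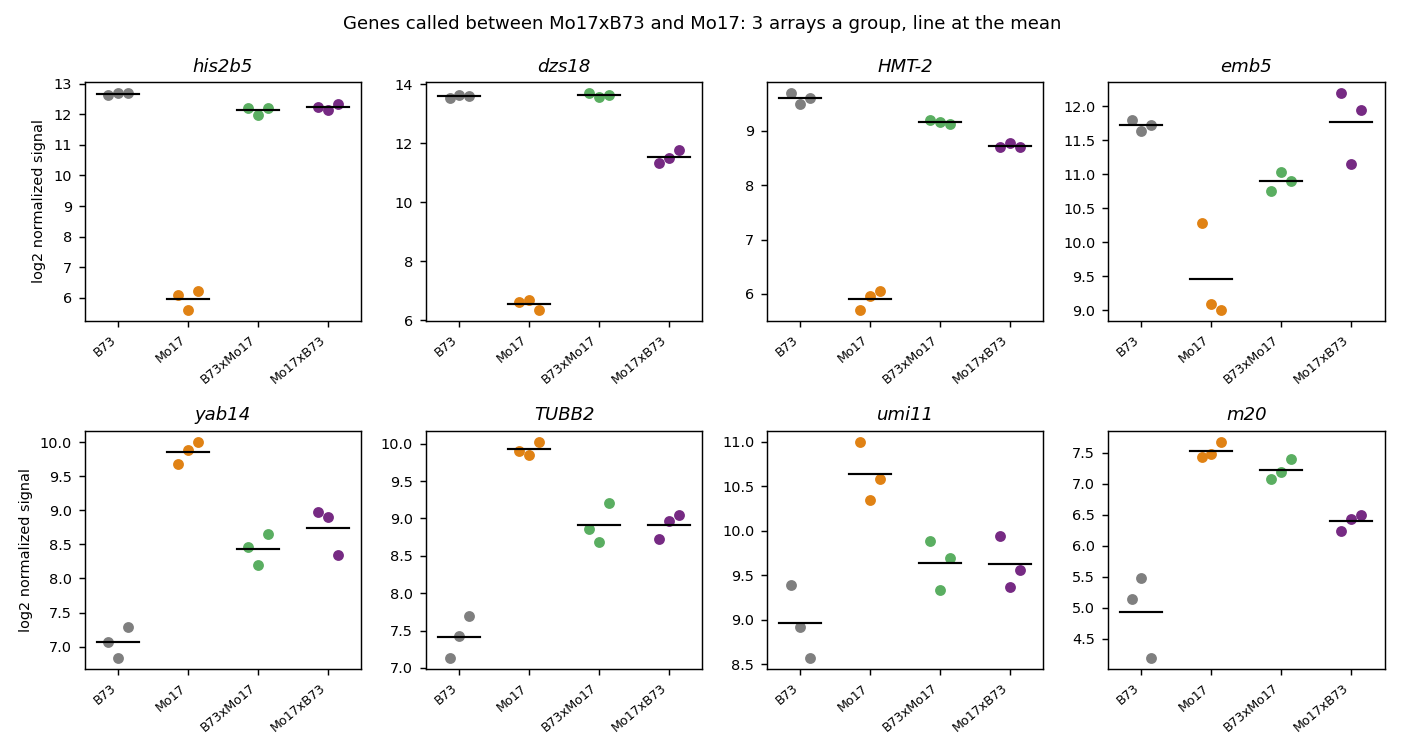
Log2 normalized signal (vertical axes, a range per gene) of 8 genes called between Mo17xB73 and Mo17, by group, with 1 point an array and a line at the mean of 3. In the top row Mo17 lies lowest, as for his2b5 at 5.61 to 6.21, and in the bottom row Mo17 lies highest, as for TUBB2 at 9.85 to 10.03.

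Most probe sets have no gene name here, and some of the widest differences are among them. Those given here were ranked by the difference with the floor. One measured 3.84, 5.49 and 4.85 in Mo17 and 10.82, 10.74 and 10.74 in Mo17xB73 (6.04 ± 0.28, or 5.73 with the floor). Another measured 4.97, 4.63 and 3.43 against 10.43, 10.41 and 10.47 (6.09 ± 0.27, or 5.59 with the floor). Downward, the unnamed probe sets furthest from 0 by that ranking fell by 1.89 ± 0.49 and by 1.82 ± 0.56 without the floor, with adjusted p of 0.019 and 0.042, while lower calls reached -4.1 on dimmer signals. Both lower calls were lost without single arrays, the first for any of 4 and the second for any of 9, up to 0.0833 and 0.165.

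Of 8 zein genes 6 were called higher and 0 lower, with a median of 0.56 beside -0.07 over all probe sets and -0.04 over the 1108 genes with an identifier, of which 18.1% were called. z1C1_12, an alpha zein gene, measured 10.40, 10.33 and 10.06 in Mo17 and 11.42, 11.37 and 11.65 in Mo17xB73 (1.22 ± 0.19, adjusted p = 0.00054). z1C2 rose by 0.90 ± 0.24, the gamma zein gene gz50 by 0.66 ± 0.16, z1D_2 by 0.47 ± 0.08 and z1C1_20 by 0.35 ± 0.07. z1C1_4 and gz27 differed by 0.08 and 0.02 and were not called. Alpha zein genes are near-identical copies, so their probe sets can read one another's transcripts, and several of these levels lie close to 14, the highest normalized value. The call of z1C2 was lost without Mo17 replicate 2 or 3 or Mo17xB73 replicate 1 or 2 (adjusted p up to 0.0942), that of gz50 without Mo17 replicate 3 or Mo17xB73 replicate 1 (up to 0.0599). With the deposited values 2 zein genes were called.

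The transcription factor gene o2, whose product activates zein genes, rose from 5.87, 6.37 and 5.87 to 8.43, 7.60 and 7.69 (1.87 ± 0.23, adjusted p = 7.2e-05). PBF, a prolamin-box factor that acts with it, measured 8.82 to 9.42 in Mo17 and 8.79 to 9.25 in Mo17xB73 and was not called. The other 6 genes of the remaining endosperm list, among them esr2 of the embryo surrounding region, were not called either.

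Genes of the embryo's own storage and desiccation programme were 5 of 9 higher and 0 lower (55.6% called), with a median of 0.64. They are the same 9 genes as the embryo markers summed above, so that sum restates their levels. No sum without the called genes was made. emb5, which encodes a late embryogenesis abundant (LEA) protein, measured 10.28, 9.10 and 9.01 in Mo17 and 12.19, 11.15 and 11.94 in Mo17xB73 (2.30 ± 0.29, adjusted p = 8.3e-05). The globulin gene glb3 measured 10.82, 11.09 and 10.43 against 11.65, 11.59 and 11.30 (0.73 ± 0.14, adjusted p = 0.0031). The dehydrin genes dhn1 and dhn2 rose by 1.23 ± 0.36 and 0.64 ± 0.14, and mlg3, a LEA gene, by 1.10 ± 0.31. For dhn1 and mlg3 the arrays of both groups overlapped: dhn1 measured 7.27, 6.35 and 6.71 in Mo17 and 8.65, 6.93 and 8.45 in Mo17xB73. Replicate 2 of Mo17xB73 was its lowest array for emb5, dhn1, mlg3 and dhn2, and replicate 1 of Mo17 its highest for the same 4 genes. The calls of dhn1 and mlg3 were lost without Mo17 replicate 2 or 3 or Mo17xB73 replicate 1 or 3, with adjusted p up to 0.137 and 0.118. The oleosin gene ole1 differed by -0.06, glb1 by 0.16, glb2 by 0.30 and the regulator vp1 by 0.12, none of them called, and with the deposited values or the floor 3 of the 9 were called.

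Of 11 basal transfer layer genes 2 were called higher and 0 lower, with a median of 0.41. That is 18.2% called, beside 18.1% of the 1108 genes with an identifier. betl3 measured 8.49, 8.62 and 8.03 in Mo17 and 9.07, 9.17 and 9.35 in Mo17xB73 (0.81 ± 0.18, adjusted p = 0.0078). bap-3b was called at 1.33 ± 0.38 from dim signals (0.39 with the floor), and the call was lost without Mo17 replicate 1 or 3 or Mo17xB73 replicate 1 or 2 (up to 0.106). The count lay between 1 and 5 when single arrays were left out. meg2 differed by 0.48, betl1 by 0.41, bap-1a by 0.57 and meg6 by -0.08, and none of these was called. The starchy endosperm marker sums given above contain the zein genes, and the transfer layer sums contain betl3 and bap-3b. Without the 8 zein genes, a choice made after seeing the data, the starchy endosperm markers summed to 16029 to 27626 in Mo17 and to 19600 to 24624 in Mo17xB73. Without betl3 and bap-3b the transfer layer markers summed to 11658 to 15955 and to 14149 to 18216. Both pairs of ranges overlap, and the part of these sums in the zein and transfer layer differences was not tested.

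Starch and sucrose genes gave 3 of 25 higher and 1 lower. That is 16% called, beside 18.1% of the 1108 genes and 16.3% of all probe sets. Shares of the lists below are set against the same values. sus2, a sucrose synthase gene, rose from 9.98, 10.02 and 9.71 to 10.99, 10.83 and 10.90 (1.01 ± 0.10, adjusted p = 7.1e-06). ss1 rose by 0.69 ± 0.14. gss1 rose by 3.17 ± 0.24, or 1.41 with the floor, from Mo17 values below it, and GBSSIIa, a granule-bound starch synthase gene, fell by 0.20 ± 0.06 on the log2 scale, a call lost without any one of 5 arrays (adjusted p up to 0.125).

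Glutathione transferases, which attach glutathione to toxic compounds, gave 5 higher and 1 lower of 31 (19.4% called). gst6 measured 8.43, 8.30 and 7.95 in Mo17 and 9.49, 9.94 and 9.94 in Mo17xB73 (1.56 ± 0.14, adjusted p = 3.7e-06). gst3a rose by 1.03 ± 0.12, gst37 by 0.90 ± 0.21 and gst28 by 2.18 ± 0.46 (1.81 with the floor). gst13 was called at 1.99 ± 0.63, or 0.86 with the floor, and gst17 fell by 0.26 ± 0.07. The gst13 call was lost with the floor and without any one of 8 arrays (adjusted p up to 0.149), that of gst17 without Mo17 replicate 2 or Mo17xB73 replicate 1 (up to 0.0628). Of 12 antioxidant enzyme genes 2 were higher (16.7% called). The superoxide dismutase gene Sod4A rose by 0.66 ± 0.09 and the catalase gene CAT3 by 2.19 ± 0.57 (1.23 with the floor). The CAT3 call was lost without Mo17 replicate 2 or 3 or Mo17xB73 replicate 1 (up to 0.0673). Among 18 defence genes 22.2% were called. The gene opr7, which encodes an oxophytodienoate reductase, rose by 1.02 ± 0.14 and prp2 by 0.73 ± 0.17, and the 2 lower calls were both mir3 entries.

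Water channels and transporters gave 7 higher and 4 lower of 41 (26.8% called). The vacuolar aquaporin gene tip1 rose from 11.47, 11.01 and 10.97 to 12.20, 12.04 and 12.36 (1.05 ± 0.12, adjusted p = 2.9e-05), and the plasma membrane aquaporin gene pip2-5 from 6.0, 6.17 and 6.39 to 7.26, 7.37 and 7.59 (1.22 ± 0.17, adjusted p = 0.00017). nip1a fell by 0.68 ± 0.13, and the proton pump gene mha4 by 0.47 ± 0.09. nip2b was called lower with both means below the floor, where its floored difference was 0. When single arrays were left out, the counts of the list lay between 3 and 7 higher and between 3 and 4 lower. The calls of PIP1-1, pip2c, pip2f, Lsi6 and pht1 were each lost without at least 1 array, that of Lsi6 without any one of 8 (adjusted p up to 0.145). Cell wall genes gave 5 higher and 0 lower of 27 (18.5% called). Besides HRGP and CesA-4 these were the expansin gene expB3 (1.13 ± 0.10), CesA-9 (0.51 ± 0.08) and cesa3 (0.21 ± 0.06), the last lost without any one of 7 arrays (up to 0.16). With median centring 4 were higher and 2 lower, and with the deposited values 3 were higher and no lower call was made.

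Heat shock and chaperone genes gave 1 higher and 4 lower of 24 (20.8% called). The higher one was hsp18a, and the lower ones all encode protein disulfide isomerases, which form disulfide bonds in the endoplasmic reticulum. pdi5 measured 8.64, 8.73 and 8.54 in Mo17 and 7.89, 8.05 and 7.95 in Mo17xB73 (-0.67 ± 0.15, adjusted p = 0.0081). pdi10 fell by 0.42 ± 0.09, pdi4 by 0.30 ± 0.09 and pdi11 by 0.27 ± 0.05. pdi10 and pdi11 have probe sets of the same cluster number. The pdi4 call was lost without any one of 4 arrays (up to 0.13). With the deposited values none of these lower calls was kept, and with median centring 6 genes of the list were called lower.

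Hormone genes gave 1 higher and 4 lower of 29 (17.2% called). abp4, an auxin-binding protein gene, measured 7.67, 7.66 and 7.56 in Mo17 and 9.53, 9.38 and 9.46 in Mo17xB73 (1.83 ± 0.07, adjusted p = 7.4e-10). The cytokinin genes hk3, which encodes a histidine kinase receptor, cko1, a cytokinin oxidase gene, and HP3, a phosphotransfer gene, fell by 0.84 ± 0.19, 0.56 ± 0.11 and 0.27 ± 0.06. arf1, listed here by its name, fell by 0.36 ± 0.05. With the deposited values none of these 4 lower calls was kept, and with median centring 5 genes of the list were called lower. In the kinase and signalling list (6.7% called) MPK4 and cka2 were lower and 0 of 30 higher. Also 0 were higher at an unadjusted p below 0.05 in the limma fit. The cka2 call was lost without any one of 6 arrays (up to 0.145), and 6 genes of the list were called lower with median centring and none with the deposited values.

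Developmental transcription factors were called in both directions, 8 higher and 6 lower of 76 (18.4% called). LOB21 rose by 5.25 ± 0.31, or 1.31 with the floor, since its Mo17 values of 0.75, 1.51 and 0.27 lay far under it. Of the homeobox genes, lg4b rose by 1.18 ± 0.22, hox1a by 0.40 ± 0.10 and lg3 by 0.40 ± 0.12, and hox3 fell by 0.54 ± 0.13. The lg3 call was lost without any one of 8 arrays (adjusted p up to 0.136), that of hox1a without Mo17xB73 replicate 2 (0.0502) and that of hox3 without Mo17 replicate 1 or 2 (up to 0.0536). rs2, a MYB-domain gene, rose by 0.72 ± 0.16. Beside yab14, the YABBY gene yab10 was lower, at 12, 12.07 and 12.02 in Mo17 and 11.09, 11.64 and 11.37 in Mo17xB73 (-0.67 ± 0.11, adjusted p = 0.0009). obf3.2, a bZIP gene, fell by 0.62 ± 0.10.

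Chromatin genes gave 5 higher and 2 lower of 53 (13.2% called), all under 2-fold. The histone acetyltransferase genes hac108 and gcn5 rose by 0.68 ± 0.09 and 0.63 ± 0.08, and ada2, whose product binds GCN5, by 0.29 ± 0.08, the last lost without Mo17 replicate 1 or 2 or Mo17xB73 replicate 3 (adjusted p up to 0.125). The chromatin counts became 3 higher and 6 lower with median centring, and none of these calls was kept with the deposited values. Replication and cell cycle genes gave 2 higher and 3 lower of 17 (29.4% called). The D-type cyclin gene cycD1 rose by 1.62 ± 0.38 (1.42 with the floor), and pcna2, the replication clamp gene, fell by 0.37 ± 0.09, which was lost without Mo17 replicate 3 (0.0507). With median centring this list gave 1 higher and 4 lower, and with the deposited values 1 higher and no lower call. Cytoskeleton genes gave 3 higher and 4 lower of 27 (25.9% called), among them tub6 (0.83 ± 0.09) and TUBB2. These became 2 higher and 8 lower with median centring, and 1 lower with no higher call with the deposited values. Ribosomal protein genes gave 2 higher of 18 and 0 lower (11.1% called). These were rps13 (0.60 ± 0.10) and rpl30 (0.38 ± 0.10), and neither call was kept with the deposited values. The rpl30 call was also lost with median centring and without any one of 4 arrays (up to 0.0823).

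The smaller lists held few calls each, at shares on both sides of the 18.1% over the 1108 genes. Called were 40% of 5 sulfur genes, 40% of 5 lipid synthesis genes and 50% of 4 P450 and benzoxazinoid genes. The other lists of this paragraph lay below 18.1%. sig3, a sigma factor gene of the plastid RNA polymerase, rose by 3.12 ± 0.61 (1.77 with the floor), the only call of 8 in plastid transcription. eif3 was the single call of 12 translation factor genes (0.82 ± 0.11). gln5 and gdh1 were called higher of 13 nitrogen genes (1.00 ± 0.19 and 0.60 ± 0.16) and adh2 of 14 glycolysis and fermentation genes (0.34 ± 0.08). The lists take the brightest probe set of a gene, which for the pyruvate decarboxylase gene pdc2 differed by -0.13 (adjusted p = 0.82). Another pdc2 probe set rose by 2.00 ± 0.22 (adjusted p = 1.9e-05), or 1.91 with the floor. Its remaining ones differed by -0.48 and 0.96 and were not called. Of the sulfur genes, sat3 rose by 0.97 ± 0.09, and sat1 was called lower with both means below the floor and a floored difference of 0. In lipid synthesis plt2, a lipid transfer protein gene, rose by 0.84 ± 0.09 and the desaturase gene FAD8 fell by 0.74 ± 0.24, a call lost without any one of 9 arrays (adjusted p up to 0.201). In the benzoxazinoid list igl1 rose by 0.52 ± 0.11 and bx6 fell by 0.24 ± 0.06. The calls of gdh1, sat1 and bx6 were lost without any one of 3, 4 and 4 arrays (up to 0.0818, 0.118 and 0.0916). Of 15 photosynthesis genes 0 were called, with 1 higher and 2 lower at an unadjusted p below 0.05 in limma, and of 9 flavonoid and lignin genes 0 were called and 0 reached that p.

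**Figure D3:**
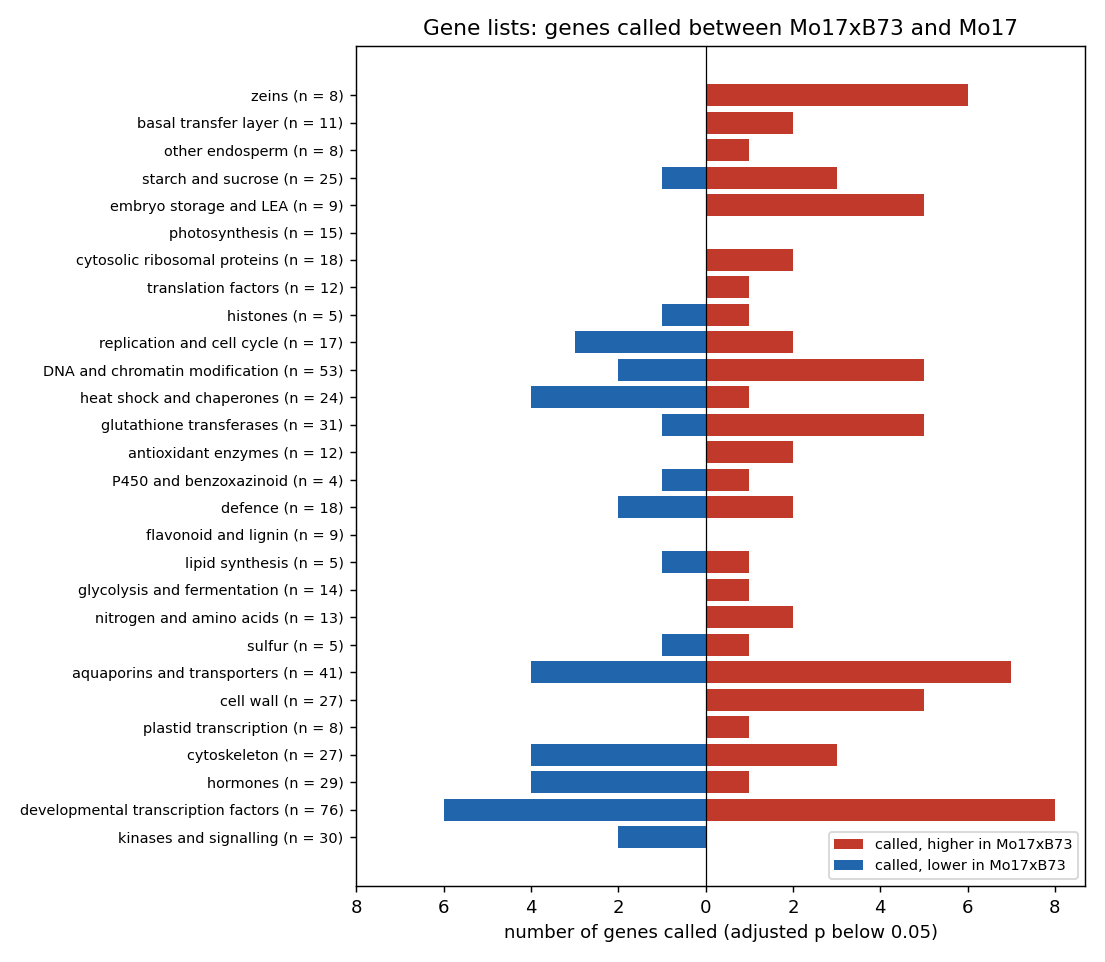
Number of genes called between Mo17xB73 and Mo17 (horizontal axis) in 28 gene lists, with the number of genes in each list in brackets. Red bars to the right count genes higher in Mo17xB73, as 6 of 8 zein genes, and blue bars to the left count genes lower, as 4 of 24 heat shock and chaperone genes. Over the 1108 genes with an identifier 18.1% were called.

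Several probe sets of 1 gene did not always move alike. Of the 222 genes that more than 1 probe set reads, 63 had a call, and for 47 of these only 1 probe set was called. In 14 genes at least 2 were called in one direction, and in 2 genes, cpi2 and glct1, probe sets were called in opposite directions. The cystatin gene cpi2 had one at -0.51 (adjusted p = 0.0017) and one at 0.46 (adjusted p = 0.0039). glct1 had one at 2.72 (1.21 with the floor) and one at -0.91 (adjusted p = 0.048), while another of its probe sets differed by 0.14.

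The step from Mo17 to Mo17xB73 has a counterpart in the other 6 arrays. B73 minus B73xMo17 also exchanges a Mo17 allele for a B73 allele, and it shares no array with Mo17xB73 minus Mo17. Over the 17621 probe sets both differences correlated with a Pearson coefficient of 0.295 and a Spearman coefficient of 0.356. Over the 12271 probe sets above the floor in all 4 groups the coefficients were 0.473 and 0.49. The probe sets share the arrays and the normalization, so this is a description.

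Probe sets chosen on the B73 and B73xMo17 arrays alone, called there and at least 2-fold apart (3.1% of those tested), mostly moved the same way in the arrays that were not used to choose them. Of the 161 that were higher in B73 than in B73xMo17, 143 (88.8%) were higher in Mo17xB73 than in Mo17, against 39.8% of all probe sets, and 107 were called so while 2 were called lower. Of the 385 that were lower in B73, 347 (90.1%) were lower in Mo17xB73, against 60.2% of all, and 194 were called lower while 5 were called higher. The sizes were unequal, and the part of the Mo17 allele that both hybrids keep was not tested. The first set had a median of 1.23 between B73 and B73xMo17 and of 1.95 between Mo17xB73 and Mo17, and the second a median of -1.95 there and of -0.70 here.

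**Figure D4:**
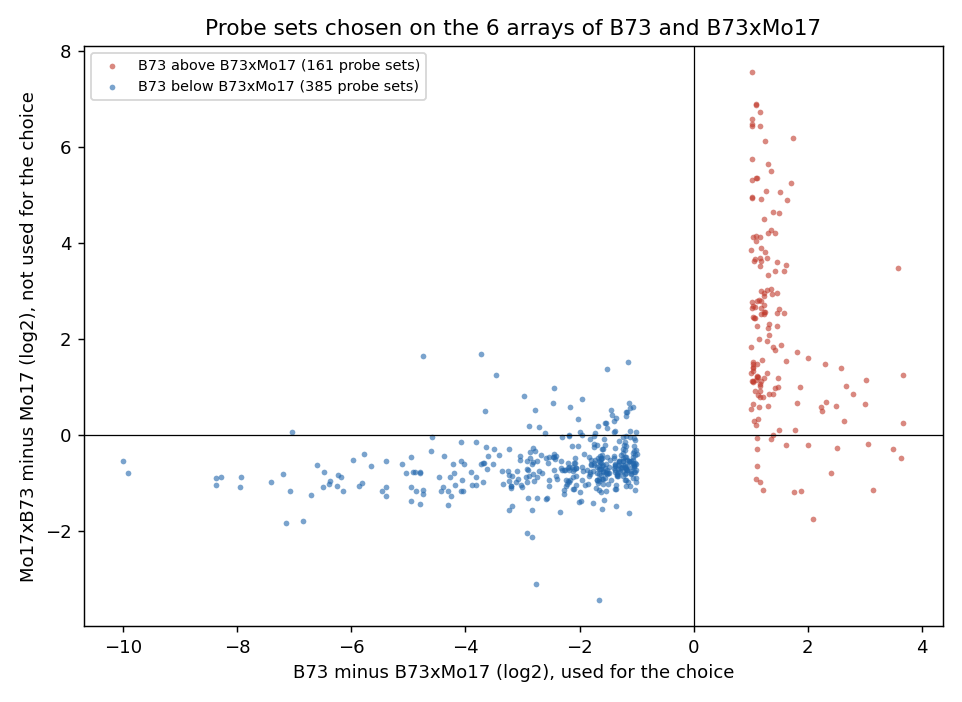
Mo17xB73 minus Mo17 (log2, vertical axis) against B73 minus B73xMo17 (log2, horizontal axis) for 546 probe sets chosen on the horizontal axis alone, called and at least 2-fold apart. Of the 161 red points on the right 143 lie above 0, and of the 385 blue points on the left 347 lie below 0, most of them in a narrow band around -0.70.

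The reciprocal hybrids have the same pair of parental genomes, so the difference between them asks whether the departure from Mo17 depends on which line was the seed parent. It was called for 153 probe sets, 0.868% of those tested, with 89 higher in Mo17xB73 and 64 lower. This is also the test of whether Mo17xB73 and B73xMo17 depart differently from Mo17. The count moved widely, to 39 with a fit without the intensity trend and to between 51 and 144 when single arrays were left out.

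dzs18 was among the widest. B73xMo17 measured 13.70, 13.58 and 13.63, at the B73 level, and Mo17xB73 lay 2.11 ± 0.10 below it (adjusted p = 2.9e-07). z1C1_12 went the other way, at 10.19, 9.50 and 9.69 in B73xMo17 and 1.69 ± 0.19 higher in Mo17xB73 (adjusted p = 0.0014). These zein genes therefore differed between the crosses in opposite directions.

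fie1, which encodes a Polycomb protein and is known in maize endosperm for expression from the maternal allele, followed the seed parent in both crosses. It measured 7.11, 7.91 and 7.29 in Mo17, 7.41, 7.80 and 7.14 in Mo17xB73, 8.47, 8.61 and 8.52 in B73 and 8.88, 8.16 and 8.62 in B73xMo17. Mo17xB73 differed from Mo17 by 0.01 ± 0.22 (adjusted p = 0.98) and lay 1.10 ± 0.22 below B73xMo17 (adjusted p = 0.039). The call between the hybrids was lost without any single one of 8 arrays, with an adjusted p of up to 0.164.

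Transfer layer genes were called higher in Mo17xB73 than in B73xMo17 for 3 of 11, beside 16 of the 1108 genes with an identifier. bap1-b measured 9.36, 9.05 and 9.30 in B73xMo17 and 10.29, 11.04 and 10.38 in Mo17xB73 (1.33 ± 0.19, adjusted p = 0.0046). bap-1a differed by 1.25 ± 0.18 (adjusted p = 0.0061) and meg2 by 1.00 ± 0.20 (adjusted p = 0.036), the last lost without any one of 7 arrays (up to 0.138). For all 3 the B73 arrays were lowest, and Mo17 and Mo17xB73 overlapped. The summed transfer layer markers ran from 8885 to 11790 in B73xMo17 and from 6448 to 7270 in B73, below the Mo17xB73 range given above, and their part in these differences was not tested. Without these 3 genes, also a choice made after seeing the data, the sums were 6158 to 7964 in B73xMo17 and 8347 to 10332 in Mo17xB73. The starchy endosperm markers ran from 83905 to 87024 in B73xMo17, above the Mo17xB73 range, but this sum contains dzs18. Without dzs18, chosen likewise, it ran from 71670 to 74186 in B73xMo17 and from 69088 to 78978 in Mo17xB73, and these ranges overlap.

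Between the crosses 26 of the 1108 genes with an identifier were called, 16 higher in Mo17xB73 and 10 lower. Of 31 glutathione transferase genes 2 were called, of 5 sulfur genes 2 and of 18 defence genes 4, all higher in Mo17xB73. Among the genes called higher in Mo17xB73, lox1, opr1 and opr5 each lost the call without any one of at least 9 arrays. gst30, a glutathione transferase gene, measured 11.45, 10.99 and 10.54 in B73xMo17 and 12.41, 12.66 and 12.56 in Mo17xB73 (1.55 ± 0.19, adjusted p = 0.0019), where Mo17 measured 12.72, 13.00 and 12.80. gst2 differed by 1.36 ± 0.24 (adjusted p = 0.02) and the allene oxide synthase gene aos1 by 0.47 ± 0.07 (adjusted p = 0.0063). aprl1 and the sulfite reductase gene sir differed by 0.87 ± 0.15 and 0.66 ± 0.13 (adjusted p = 0.015 and 0.034). The other probe sets of sir differed by 0.14 and 0.03 (adjusted p = 0.72 and 0.98). Without B73xMo17 replicate 2 or 3 or Mo17xB73 replicate 2 the calls of gst2, aprl1 and sir were each lost, as were those of gst2 and sir without Mo17xB73 replicate 1 and those of aprl1 and sir without Mo17xB73 replicate 3 (up to 0.0826, 0.0882 and 0.136 in the order gst2, aprl1, sir). For gst2 and aos1 the arrays of Mo17xB73 and Mo17 overlapped, and for gst30 the Mo17xB73 arrays lay just under those of Mo17. sfp1 was 1.63 ± 0.24 higher in Mo17xB73 (adjusted p = 0.0065). lox1 (1.93) and piip1 (2.28) were called on signals near the floor and differed by 0.34 and 0.41 with it, where neither call was kept. The brightest probe set of piip1 differed by -0.27 (adjusted p = 0.24), and its remaining ones by 0.23 to 1.65, none of them called. The other lox1 probe set differed by -0.49 (adjusted p = 0.92).

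Lower in Mo17xB73 than in B73xMo17 were LPE1, a nucleobase permease gene, by 1.43 ± 0.22 (adjusted p = 0.0095), and glb3 by 0.77 ± 0.14 (adjusted p = 0.026). LPE1 measured 7.42, 7.12 and 6.74 in B73xMo17 and 5.53, 5.69 and 5.77 in Mo17xB73, and Mo17 measured 6.43, 6.20 and 5.73. Without B73xMo17 replicate 1, 2 or 3 or Mo17xB73 replicate 2 or 3 the glb3 call was lost (adjusted p up to 0.127).

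**Figure D5:**
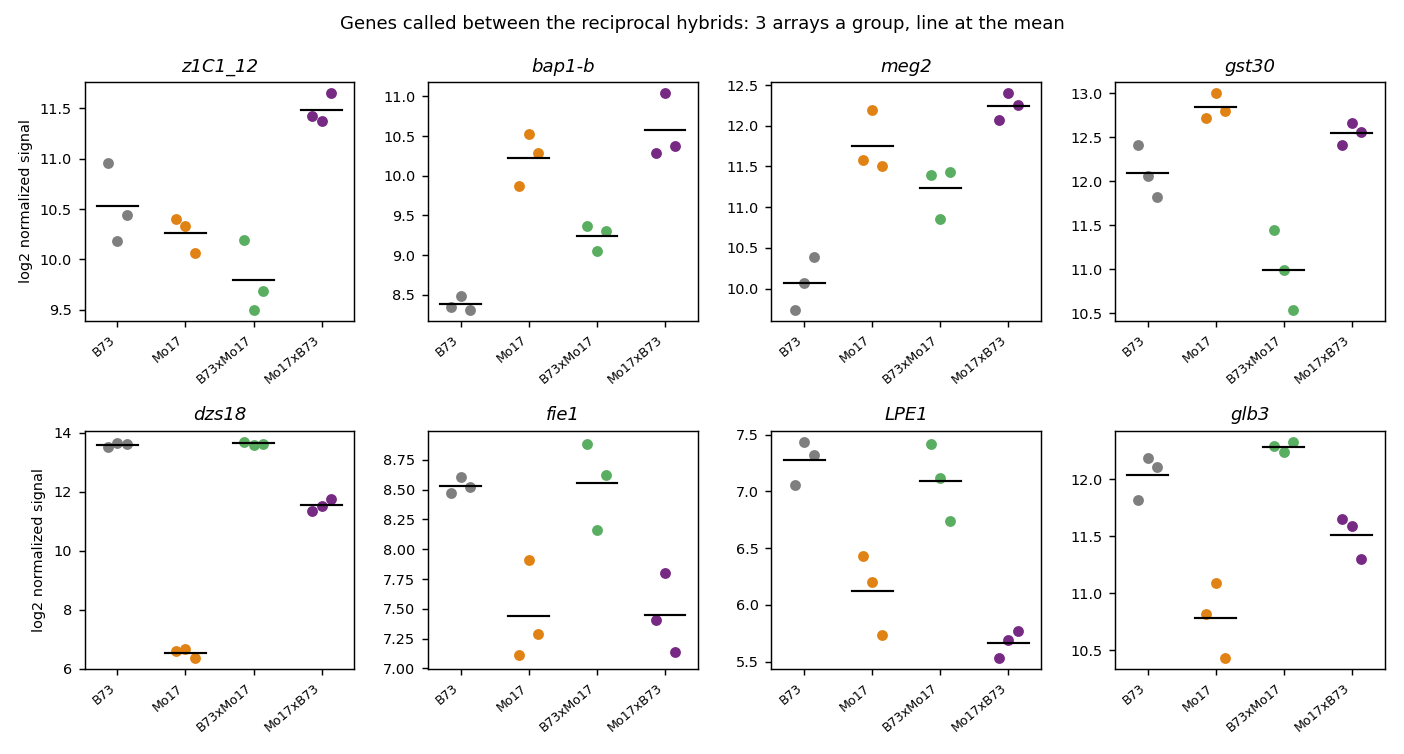
Log2 normalized signal (vertical axes, a range per gene) of 8 genes called between Mo17xB73 and B73xMo17, by group, with 1 point an array and a line at the mean of 3. For fie1 Mo17xB73 lies at 7.14 to 7.80, within the range of Mo17, and for dzs18 it lies between both inbreds at 11.34 to 11.76.

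Departures past both parents were not called. A test of Mo17xB73 above both inbreds or below both gave 0 probe sets at a limma adjusted p below 0.05, and 305 had an unadjusted p below 0.05. For z1C1_12 the 3 Mo17xB73 arrays, at 11.37 to 11.65, lay above all arrays of B73 (10.18 to 10.96) and of Mo17 (10.06 to 10.40), and this gene too was not called in that test.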

How the data were processed

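RNA of maize embryos was measured on 12 one-colour arrays. The deposited intensity values are probe set signals made by the authors with MAS5, per the submitters' processing notes, with no version given and no normalization between arrays recorded in the sources used here. The medians of the arrays lay between 192.1 and 313.8 (ratio 1.634). After 113 control probe sets were left out, the signals were log2 transformed and then quantile normalized. The 66 reporter probe sets that remained gave 0 calls in limma and 5 at an unadjusted p below 0.05.

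A limma model (version 3.58.1, R 4.3.3, lmFit, eBayes with trend, 8 residual degrees of freedom) gave a mean for each of the 4 groups from the 12 arrays. It was also run on simulated data drawn as independent normal values. Those held no differences in scaling between arrays, so that run cannot speak for the choice of scaling. Two-sided p-values were adjusted over 17621 probe sets by Benjamini-Hochberg, with a threshold of 0.05. Precision is limited by the number of arrays.

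The platform table gave 1 gene for 1452 probe sets, several for 1 and none for 16168. Of 1108 genes, 1060 were matched to RefSeq (Zm-B73-REFERENCE-NAM-5.0), which was used for names. Gene lists were matched by name, with the brightest probe set for each gene. Named genes are the 12 highest and 12 lowest called ones by the difference with the floor, called list members and genes called between the hybrids. A gene is shown by its called probe set with the highest mean. Members and lists were chosen with earlier results of these data known.

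Replicate numbers mark shared collection dates per the labels' protocols. Deviations of same-numbered arrays from their group means correlated at 0.0437, -0.00176 and 0.0376. Other scalings, a floor, a filter on dim probe sets, a fit without trend, only the arrays compared, the replicate block and leaving out each array were tried.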

Additional observations from a re-analysis of the deposited data

Results flagged for a closer look

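Genes named here stand out because the departures of both hybrids from Mo17 differ by a test of that difference, Mo17xB73 minus B73xMo17 in the limma fit (adjusted p below 0.05, 0.868% of all probe sets). Most of these 27 gene calls depended on the settings. In a fit without the intensity trend 23 were lost, with the floor 20 and with the deposited values 17. Only dzs18, z1C1_12, gst30 and LPE1 kept the call in every setting run. Described above with their values are piip1 (2.28), dzs18 (-2.11), lox1 (1.93), z1C1_12 (1.69), sfp1 (1.63), gst30 (1.55), LPE1 (-1.43), gst2 (1.36), bap1-b (1.33), bap-1a (1.25), fie1 (-1.10), meg2 (1.00), aprl1 (0.87), glb3 (-0.77), sir (0.66) and aos1 (0.47). Further genes higher in Mo17xB73 were opr5 (1.23) and opr1 (0.99), both for oxophytodienoate reductases, su2 (0.96), a starch synthase gene, hmt1 (0.93) and mas1 (0.76). The su2 call was lost with collection date as a replicate block. Further genes lower in Mo17xB73 were pdc2 (-1.06), a pyruvate decarboxylase gene, yuc (-0.92), S6K (-0.76), plt2 (-0.45), ubc7 (-0.35) and phi1 (-0.29). The other 3 probe sets of pdc2 differed by -0.43, 0.45 and 2.33 (adjusted p = 0.62, 0.61 and 0.21), the last on signals below the floor. The calls of pdc2, phi1, opr1, opr5, plt2, su2 and lox1 were each lost without any one of at least 9 arrays, those of S6K without any one of 8, mas1 of 6, yuc of 5, and ubc7 and piip1 of 4.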

How the results depend on the processing

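With collection date as the replicate block, the difference between Mo17xB73 and Mo17 was called for 3138 probe sets, and that between the hybrids for 187. The block changed no named call other than cenH3 and su2. Median centring gave 2231 lower calls and a correlation of 0.309 with B73 minus B73xMo17. The deposited values gave 896 calls (742 higher, 154 lower), 42 between the hybrids and a correlation of 0.309, and 71 of 121 gene calls against Mo17 were lost. The floor gave 76 calls between the hybrids, a correlation of 0.483 and 95.5% of the chosen probe sets with the same sign, against 89.7%. Probe sets with a group mean above the floor gave 0.401 and 92.4%, and a fit without trend 39 calls between the hybrids and 91.2%. Without single arrays, the calls ran from 2112 to 2949, the higher from 1266 to 1571, the lower from 809 to 1378, those between the hybrids from 51 to 144, the correlation from 0.269 to 0.29 and the share from 87.8% to 92%. Of the 121 gene calls, 46 were lost without at least 1 array, 22 of 76 higher and 24 of 45 lower. No gene call changed sign. The calls past both inbreds stayed at 0 in every setting run. Only the arrays compared were not used for that test, the correlation and the chosen probe sets. Signals near the low end limit the size of the widest differences.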
